A study of Homo sapiens with 18 samples.

Results

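The 4 signalling fibroblast growth factor (FGF) receptor genes, FGFR1, FGFR2, FGFR3 and FGFR4, the FGF-binding protein gene FGFBP1 and the ligand gene FGF2 were followed by name across 6 isogenic human cell lines. All 6 genes were found among the 22031 genes of the expression table, and all 6 passed the filter on low values. The set was put together with results of these libraries in view: the differences from the control line of FGFR3, FGFBP1 and FGF2 were already known, and FGF2 belongs to the signature that the study drew from the same libraries. The values of the 6 genes are therefore given as a description, without a test. The lines were made from MCF-10A, a non-tumorigenic mammary epithelial line, by stable lentiviral delivery of a short hairpin RNA against 1 gene of nucleotide excision repair (NER), which removes bulky lesions from DNA. The deficient (dNER) lines were shXPA, shXPC, shERCC4, shERCC5 and shERCC6, each carrying 1 hairpin clone against the gene it is named for, and the reference was shCTRL, carrying a non-target hairpin. All lines had been selected in puromycin, and each was sequenced after removal of ribosomal RNA as 3 biological replicates, 18 libraries in all. A target and its line cannot be told apart, since there was 1 line per target and 1 control line.

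FGF ligands bind receptor tyrosine kinases together with heparan sulfate chains on the cell surface, and the bound receptor pair passes the signal through the adaptor FRS2 to the RAS-MAPK cascade. ERK, the last kinase of the cascade, then induces transcription factors of the ETS and AP-1 families as well as inhibitors that dampen the same cascade. FGF2 is a ligand held in the matrix by heparan sulfate, and FGFBP1 is a secreted carrier that releases it from there. In stratified and glandular epithelia the receptors are mostly made as the IIIb splice forms, which answer to ligands of neighbouring stroma, and FGFR3 is known for its role in skin, bone and bladder epithelium.

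The 3 genes with the widest differences from shCTRL all lie on chromosome 4 (GRCh38, GENCODE 29), FGFR3 at 1793293 to 1808872 on the plus strand, FGFBP1 at 15935569 to 15938740 on the minus strand and FGF2 at 122826708 to 122898236 on the plus strand. FGFR3 and FGFBP1 are 14126697 bases apart. Their upstream sequences are shown because FGFR3 and FGFBP1 were both higher in the dNER lines while their promoters differ in base composition. The letters are from RefSeq (GRCh38.p14), 5′ to 3′ on the strand of the gene and ending before the first base that RefSeq or GENCODE annotates for it, and capitals mark the GC box GGGCGG on either strand, the letters bound by SP1-type zinc finger factors. The stretches are chr4:1793043-1793292 for FGFR3, chr4:15938741-15938990 for FGFBP1 and chr4:122826581-122826681 for FGF2.
FGFR3: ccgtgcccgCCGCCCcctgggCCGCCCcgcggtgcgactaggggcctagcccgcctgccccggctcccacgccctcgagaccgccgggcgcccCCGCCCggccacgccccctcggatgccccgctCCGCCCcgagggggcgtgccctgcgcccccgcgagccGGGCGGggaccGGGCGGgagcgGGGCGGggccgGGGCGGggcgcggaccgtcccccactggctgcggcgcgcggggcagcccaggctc
FGFBP1: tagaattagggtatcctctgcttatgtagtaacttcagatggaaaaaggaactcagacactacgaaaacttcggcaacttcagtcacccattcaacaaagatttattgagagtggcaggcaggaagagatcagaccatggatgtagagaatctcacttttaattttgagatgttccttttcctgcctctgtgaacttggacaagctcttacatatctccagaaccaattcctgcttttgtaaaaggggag
FGF2: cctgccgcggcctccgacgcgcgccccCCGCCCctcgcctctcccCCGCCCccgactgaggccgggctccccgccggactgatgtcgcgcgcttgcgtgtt
The 250 bases before FGFR3 had 86.8% G and C and held 8 GC boxes, and the 250 bases before FGFBP1 had 40.8% and held 0, against a median of 58.0% over 27305 promoters of the same length, of which 42.3% held a GC box. The 101 bases before FGF2 had 80.2% G and C and 2 GC boxes. Of all promoters, 17.0% held one in the first 101 of their 250 bases, the part farthest from the start. None of the 3 stretches contained TGANTCA (the AP-1 site), GGAATG (bound by TEAD factors) or TATAAA (the TATA box) on either strand. These letters occurred in 6.60%, 11.9% and 11.1% of the 250-base promoters, and in 2.51%, 5.04% and 4.67% within their first 101 bases. The matches describe the letters only.

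Expression was given as TPM, a transcript's share of all transcripts in a library scaled to a fixed total, which also corrects for transcript length. Each library summed to between 999214 and 999484 TPM, so that the number of reads behind a value is unknown, and the values are relative to all other RNA of a library. The hairpin target averaged 40.8% to 67.6% of its shCTRL level in the line named for it and lay below all 3 shCTRL libraries in each of the 5 lines. The first shERCC4 replicate stood apart, as 1 entry, CTD-2328D6.1, took 26.5% of its TPM against 3.45% to 7.58% in the other 17 libraries. For the 6 genes the shERCC4 values are also given without its single libraries, and a call on a named gene that was lost without 1 library is named beside it. The median gene had a fitted log2 difference from shCTRL of −0.29 in shXPA, −0.42 in shXPC, −0.39 in shERCC4, −0.29 in shERCC5 and −0.24 in shERCC6, and a scaling that centres the genes (median of ratios) moves each value up by about that amount.

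The labelled mammary basal epithelial identity was met, as all 12 of 12 markers averaged 1 TPM or more in each line and summed to 5193 to 10545 TPM in the dNER lines and 5710 TPM in shCTRL. TP63, the master factor of basal cells, rose in all 5 lines (mean log2 difference 1.72 ± 0.14, SE). Of the fibroblast and mesenchymal markers 10 of 12 were in the table and 5 averaged under 1 TPM in each line, with LUM at 0 in all shXPC and shERCC4 libraries and COL3A1 at 0 in all shXPA and shERCC4 libraries. They summed to 405 to 746 TPM in single dNER libraries and 1421 to 1466 TPM in single shCTRL libraries, mostly from VIM, and of the 6 tested 4 fell and 0 rose for the mean of the lines (limma, q under 0.05 and fold above 1.5, and 4 and 0 at an unadjusted p under 0.05), while 28.6% of all genes tested fell and 7.84% rose. Luminal markers summed to 343 to 576 TPM on average in the dNER lines and 474 TPM in shCTRL, with 5 of the 11 in the table under 1 TPM. The 20 proliferation genes summed to 319 TPM in shXPA, 483 in shXPC, 1360 in shERCC4, 734 in shERCC5 and 1528 in shERCC6, against 2134 TPM in shCTRL. The part of these shifts in the values that follow was not tested, and in bulk samples fewer cells of a type and less RNA per cell cannot be told apart.

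FGFR3 was the receptor with the widest difference, at a level several times that of shCTRL in each dNER line and highest in shXPA. The shXPA libraries held 188, 187 and 191 TPM, the shXPC libraries 94.4, 106 and 93.3 TPM and the shERCC5 libraries 56.7, 61.0 and 62.5 TPM. In shERCC6 the values were 46.0, 46.5 and 51.0 TPM and in shERCC4 22.6, 29.1 and 60.6 TPM, against 7.72, 7.44 and 8.61 TPM in shCTRL. All 15 dNER libraries were thus above all 3 shCTRL libraries, and the lowest of them, the first shERCC4 replicate, still held 2.62 times the highest shCTRL value. The means were 189 ± 1.75 TPM in shXPA, 97.8 ± 6.79 in shXPC, 37.4 ± 20.4 in shERCC4, 60.0 ± 3.01 in shERCC5 and 47.8 ± 2.73 in shERCC6, against 7.92 ± 0.610 in shCTRL (SD, n = 3 each). On the scale log2(TPM + 0.5) the fitted differences from shCTRL were 4.49 in shXPA, 3.54 in shXPC, 2.04 in shERCC4, 2.85 in shERCC5 and 2.52 in shERCC6 (SE 0.22 each), and 3.09 ± 0.17 (SE) for the mean of the 5 lines. Of the 16382 genes tested, 15 had a larger mean difference.

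The order of the lines for FGFR3 was shXPA, shXPC, shERCC5, shERCC6, shERCC4 and shCTRL. Only shERCC6 and shERCC4 overlapped in their libraries among neighbours in this order, and all other neighbours were separate. From shERCC4 to shXPA the mean level differed 5.04-fold. The spread within a line was narrow in shXPA, where the SD was 0.925% of the mean, and wide in shERCC4, where it was 54.4%. The third shERCC4 replicate was the high one, and the fitted difference of this line was 1.64 without it and 2.34 without the first replicate.

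FGFR1 (GRCh38, chromosome 8, 38400215 to 38468834, minus strand), the main receptor of mesenchymal cells, showed no such shift. Its libraries held 12.7, 18.3 and 6.95 TPM in shXPA, 5.11, 7.12 and 8.89 TPM in shXPC and 4.61, 5.002 and 6.66 TPM in shERCC4. In shERCC5 they held 12.2, 12.5 and 8.44 TPM and in shERCC6 10.4, 10.8 and 7.07 TPM, against 10.7, 10.2 and 13.6 TPM in shCTRL. The shXPC and shERCC4 libraries lay below all of shCTRL, and those of the other 3 lines overlapped with it. The share of all genes whose libraries of a single line lie apart from shCTRL was not taken. Nothing is therefore read from such separation in single lines, here or for FGFR2 and FGFR4 below. Fitted log2 differences were 0.05 in shXPA, −0.69 in shXPC, −1.02 in shERCC4, −0.06 in shERCC5 and −0.28 in shERCC6 (SE 0.28 each), and with median-of-ratios scaling the shXPC and shERCC4 values were −0.22 and −0.62. The mean over the 5 lines was −0.40 ± 0.22 (SE) and −0.05 with median-of-ratios scaling, so that no direction is given for it. Without 1 of its own libraries shERCC4 stayed between −1.17 and −0.92. All neighbours in the order of the lines overlapped in their libraries. FGFR1 shares 9313 bases with LETM2 on the other strand, and since no source used here states whether the libraries kept the strand, reads from the shared part cannot be told apart.

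FGFR2 (chromosome 10, 121478334 to 121598458, minus strand), the receptor best known from mammary and other branching epithelia, was low in all lines. It was 3.88, 2.45 and 1.96 TPM in shXPA, 2.62, 3.53 and 3.61 TPM in shXPC, 2.48, 2.77 and 1.74 TPM in shERCC4 and 2.20, 3.72 and 3.16 TPM in shERCC5. The shERCC6 libraries held 4.78, 5.14 and 5.79 TPM, against 3.43, 3.07 and 4.35 TPM in shCTRL. The shERCC6 libraries were above and the shERCC4 libraries below all shCTRL libraries, with fitted log2 differences of 0.49 and −0.55 (SE 0.23 each), and without 1 of its own libraries shERCC4 stayed between −0.66 and −0.39. The other 3 lines overlapped with shCTRL, at −0.37 in shXPA, −0.13 in shXPC and −0.24 in shERCC5. The mean over the 5 lines was −0.16 ± 0.18 (SE), and it turned to 0.16 with median-of-ratios scaling, so that no direction is given for this gene. In the order of the lines only shERCC6 and shCTRL, the first and the next, had separate libraries.

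FGFR4 (chromosome 5, 177086886 to 177098144, plus strand), a receptor prominent in liver, was near the lower end of what was measured. Its values were 1.23, 1.98 and 0.749 TPM in shXPA, 1.31, 2.73 and 5.05 TPM in shXPC, 1.83, 2.50 and 3.55 TPM in shERCC4, 3.35, 1.91 and 4.09 TPM in shERCC5 and 3.90, 3.30 and 4.21 TPM in shERCC6, against 4.34, 2.71 and 4.89 TPM in shCTRL. The 3 shXPA libraries were below all shCTRL libraries, with a fitted log2 difference of −1.32 (SE 0.37), which was −1.02 with median-of-ratios scaling. In the other 4 lines the libraries overlapped with shCTRL, and the fitted differences ran between −0.52 in shERCC4 and −0.03 in shERCC6. The mean over the 5 lines was −0.53 ± 0.29 (SE), and −0.21 with median-of-ratios scaling. Without 1 of its own libraries shERCC4 was between −0.73 and −0.33. In shXPC the SD was 62.4% of the mean, and all neighbours in the order of the lines overlapped.

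**Figure D1:**
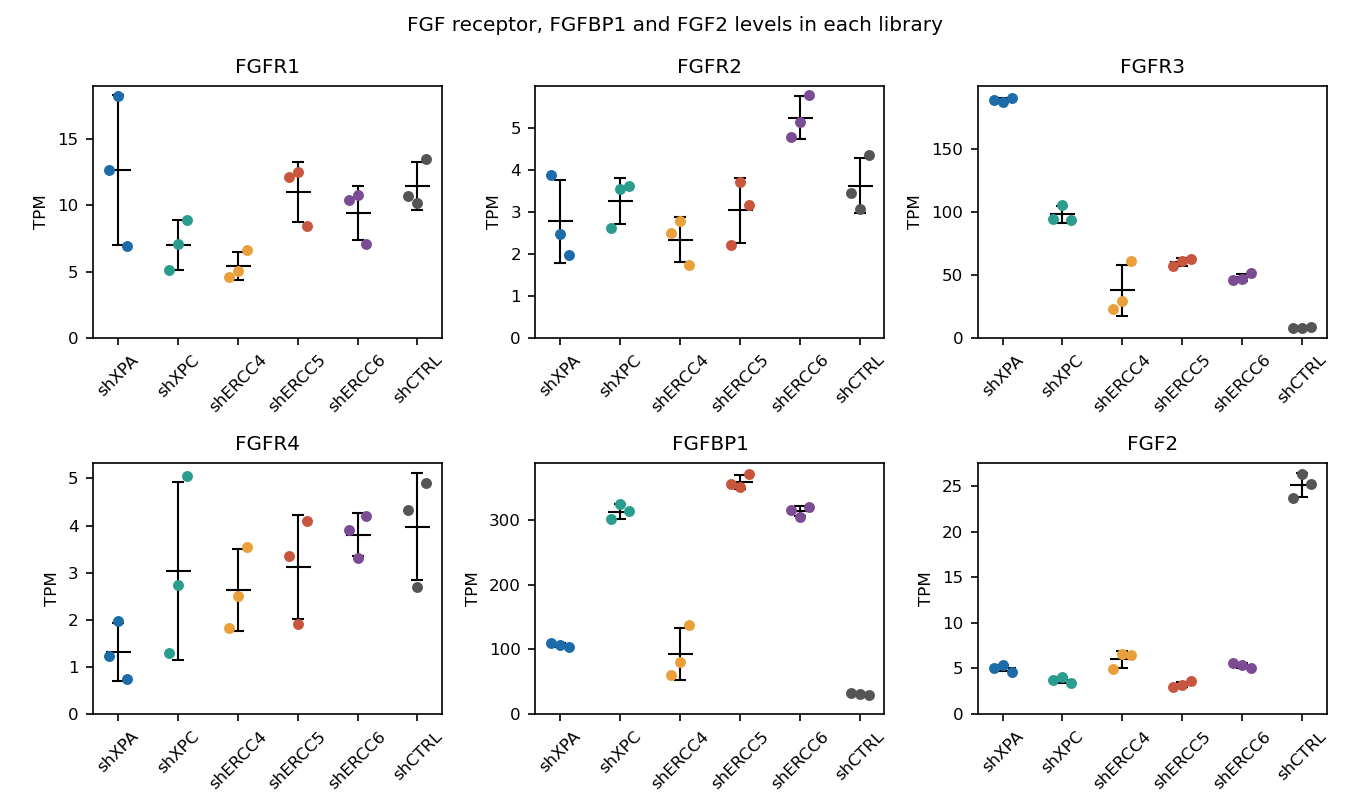
TPM of the 6 genes (y axis, each panel on its own scale from 0) in each library (points), with the mean and SD of the 3 replicates of each line (black bars); the lines stand on the x axis. FGFR3 and FGFBP1 sit above shCTRL in all 15 dNER libraries and FGF2 below it, while FGFR1, FGFR2 and FGFR4 overlap with shCTRL in 3, 3 and 4 of the 5 lines. The share of all genes that overlap with shCTRL in single lines was not taken.

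The receptor pool had a different make-up in the dNER lines. FGFR3 accounted for 91.9% ± 3.04 of the summed TPM of the 4 receptor genes in shXPA, 88.1% ± 3.60 in shXPC, 76.4% ± 6.30 in shERCC4, 77.7% ± 1.96 in shERCC5 and 72.1% ± 2.43 in shERCC6, against 29.6% ± 2.19 in shCTRL (SD, n = 3 each). No library departed from this, as single dNER libraries ranged from 70.7% to 95.2% and single shCTRL libraries from 27.4% to 31.8%. FGFR1 took 6.12% to 14.3% of the sum on average in the dNER lines and 42.5% ± 1.43 in shCTRL, where it was the leading receptor gene. The summed receptor level was 206 TPM in shXPA, 111 in shXPC, 47.8 in shERCC4, 77.2 in shERCC5 and 66.3 in shERCC6, against 27.0 TPM in shCTRL. The 3 receptors other than FGFR3 together gave 16.7 ± 6.61 TPM in shXPA, 13.3 ± 4.26 in shXPC, 10.4 ± 1.52 in shERCC4, 17.2 ± 1.31 in shERCC5 and 18.5 ± 1.22 in shERCC6, against 19.1 ± 3.46 TPM in shCTRL. As these shares are ratios within a library, they do not move with the scaling of the libraries. TPM here are per gene, so the IIIb and IIIc splice forms of a receptor are not separated.

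**Figure D2:**
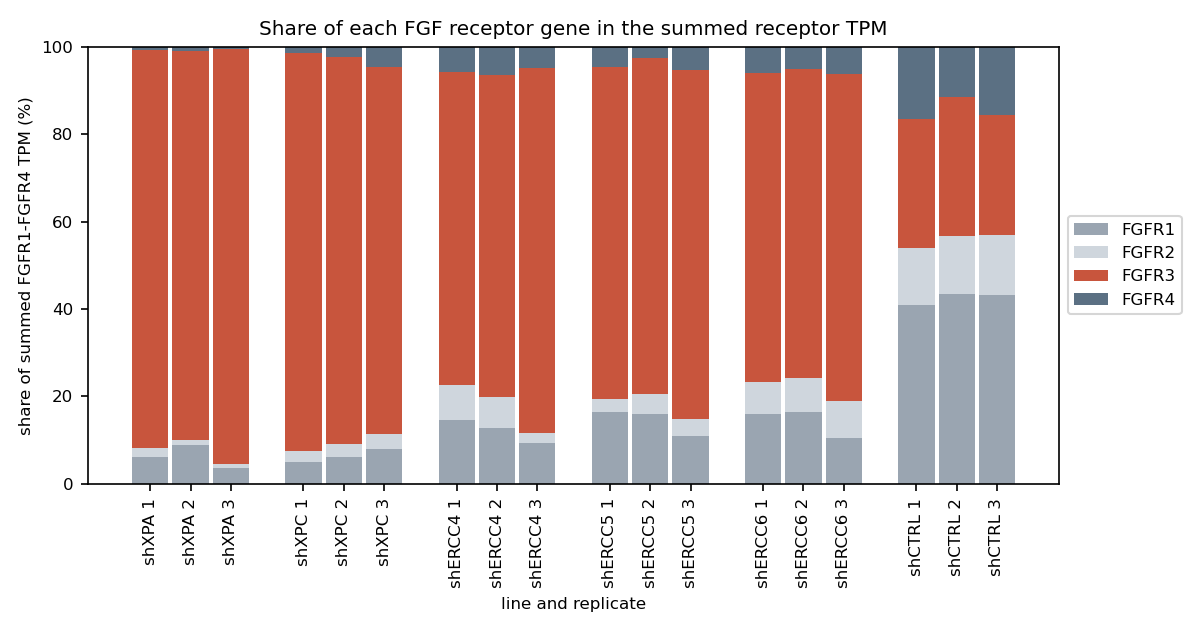
Share of FGFR1, FGFR2, FGFR3 and FGFR4 in their summed TPM (y axis, percent) for each of the 18 libraries (bars, grouped by line on the x axis). FGFR3 fills between 70.7% and 95.2% of each dNER bar and between 27.4% and 31.8% of each shCTRL bar.

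FGFBP1, the carrier that mobilises FGF2 from the matrix, was also higher in each dNER line, but the lines ranked in another order than for FGFR3. It reached 355, 352 and 372 TPM in shERCC5, 316, 305 and 320 TPM in shERCC6 and 301, 324 and 314 TPM in shXPC. The shXPA libraries held 110, 107 and 104 TPM and the shERCC4 libraries 59.7, 80.3 and 138 TPM, against 32.8, 31.4 and 29.7 TPM in shCTRL. Again all 15 dNER libraries were above all shCTRL libraries. Means were 107 ± 2.95 TPM in shXPA, 313 ± 11.5 in shXPC, 92.6 ± 40.5 in shERCC4, 360 ± 10.9 in shERCC5 and 313 ± 7.88 in shERCC6, against 31.3 ± 1.52 TPM in shCTRL (SD, n = 3 each). The fitted log2 differences were 1.76, 3.30, 1.46, 3.50 and 3.31 in that order of the dNER lines (SE 0.19 each), and 2.67 ± 0.14 (SE) for their mean. Without the third shERCC4 replicate the shERCC4 difference was 1.14, and without the first it was 1.74. The lines thus formed a high group of shERCC5, shERCC6 and shXPC and a lower one of shXPA and shERCC4, with overlapping libraries between shERCC6 and shXPC and between shXPA and shERCC4.

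FGF2 was lower in each dNER line. The libraries held 5.07, 5.33 and 4.64 TPM in shXPA, 3.68, 4.12 and 3.39 TPM in shXPC and 4.94, 6.63 and 6.44 TPM in shERCC4. They held 3.01, 3.13 and 3.57 TPM in shERCC5 and 5.61, 5.41 and 5.08 TPM in shERCC6, against 23.7, 26.3 and 25.3 TPM in shCTRL. All 15 dNER libraries were below all 3 shCTRL libraries, and the spread among the dNER lines was small beside the gap to shCTRL. The line means came to 19.97% of shCTRL in shXPA, 14.9% in shXPC, 23.9% in shERCC4, 12.9% in shERCC5 and 21.4% in shERCC6, and the highest and lowest dNER means differed 1.85-fold. The fitted log2 differences were −2.22 in shXPA, −2.60 in shXPC, −1.99 in shERCC4, −2.78 in shERCC5 and −2.13 in shERCC6 (SE 0.13 each), and −2.34 ± 0.10 (SE) for the mean. Without 1 of its own libraries shERCC4 was between −2.06 and −1.86. In the order shCTRL, shERCC4, shERCC6, shXPA, shXPC and shERCC5, shCTRL was separate from shERCC4 and shXPA from shXPC, and the other neighbours overlapped. The summed fibroblast and mesenchymal markers were lower in the same 15 libraries, and their part in this was not tested. FGF2 shares 9540 bases with NUDT6, a gene of the other strand long known as its antisense partner. NUDT6 averaged 10.2 ± 0.841 TPM in shXPA, 7.65 ± 0.359 in shXPC, 13.9 ± 3.83 in shERCC4, 10.1 ± 2.10 in shERCC5 and 12.6 ± 1.18 in shERCC6, against 12.1 ± 2.98 TPM in shCTRL, and its log2 difference for the mean of the lines was −0.16 ± 0.15 (SE), which did not pass the threshold (limma, q = 0.111).

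Among the 16382 genes tested, 2.81% had all 15 dNER libraries above all 3 shCTRL libraries, as FGFR3 and FGFBP1 did, and 24.5% had all of them below, as FGF2 did. The genes were picked on this contrast, and nothing further is read from these counts. The ratio of FGFBP1 to FGF2 TPM, the carrier over its ligand, was 21.4 ± 1.15 in shXPA, 84.4 ± 7.26 in shXPC, 15.2 ± 5.37 in shERCC4, 111 ± 7.02 in shERCC5 and 58.5 ± 3.82 in shERCC6, against 1.25 ± 0.115 in shCTRL (SD, n = 3 each). FGFBP1 thus exceeded FGF2 in every dNER library, with 12.1 as the lowest ratio, while both genes were close in level in shCTRL.

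**Figure D3:**
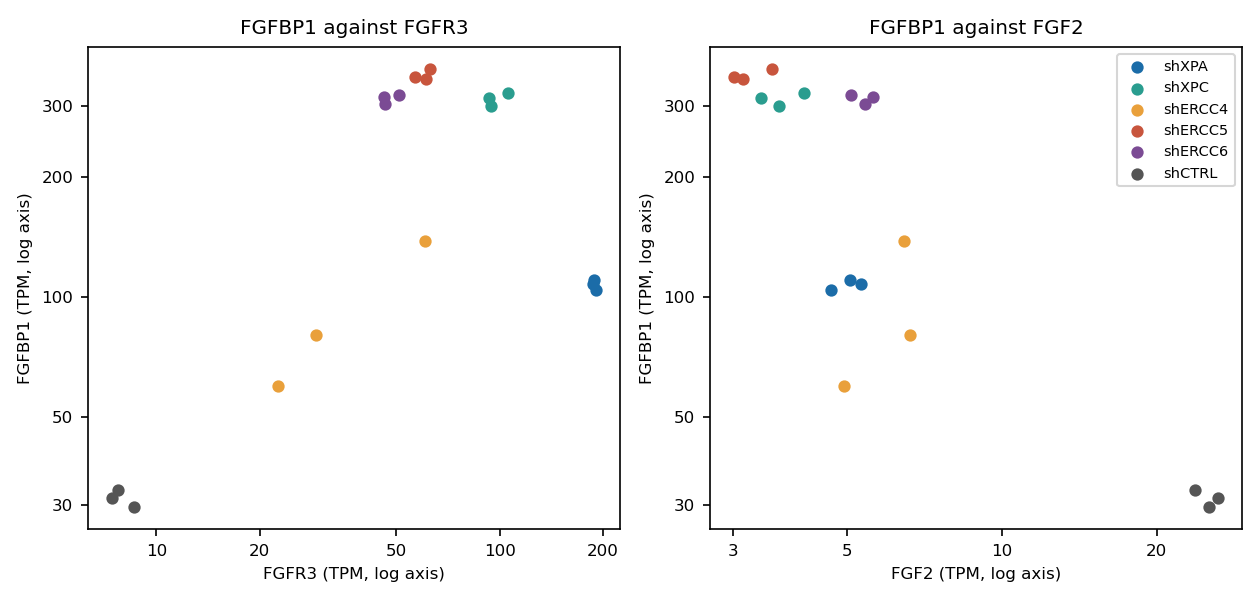
FGFBP1 TPM (y axis, log scale) against FGFR3 TPM (left, log scale) and FGF2 TPM (right, log scale), 1 point per library, coloured by line. The 3 shCTRL libraries stand alone in both panels; shXPA joins the highest FGFR3, 187 to 191 TPM, with FGFBP1 of 104 to 110 TPM, while shERCC5 joins FGFR3 of 56.7 to 62.5 TPM with the highest FGFBP1.

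FGFR3 and FGFBP1 were not graded alike among the dNER lines. Their Pearson correlation of log2(TPM + 0.5) was 0.63 over the 18 libraries and 0.0017 over the 15 dNER libraries. FGFBP1 and FGF2 had −0.85 over 18 and −0.61 over 15 libraries, and FGFR3 and FGF2 had −0.81 and −0.18. The points share lines, so that 3 libraries of 1 line are not separate evidence, and these coefficients only describe the libraries at hand.

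The genes whose pattern was most like that of each member were found by Pearson correlation over the 18 libraries among 10932 genes with a mean of at least 5 TPM (10933 for FGFR2 and FGFR4). For FGFR3 they were PALMD (0.988 over 18 libraries, 0.972 over the 15 dNER libraries), DSC3 (0.984 and 0.955), RAPGEFL1 (0.984 and 0.974) and S100A9 (0.982 and 0.947). DSC3 encodes a desmosomal cadherin and S100A9 a calcium-binding protein of stressed keratinocytes and myeloid cells. For FGFBP1 they were PNLIPRP3 (0.963 and 0.924), TNFRSF6B (0.947 and 0.871) and CA2 (0.939 and 0.916), the last a carbonic anhydrase and TNFRSF6B a soluble decoy receptor. For FGF2 they were GOSR2 (0.986 and 0.874), TRAM2 (0.981 and 0.873), SCCPDH (0.976 and 0.902) and TGFBI (0.975 and 0.740), of which TGFBI is a matrix protein induced by TGF-beta. The 3 lists have no gene in common. The best matches of the other receptors were weaker, with MAPK13 at 0.786 for FGFR1, ABCB8 at 0.826 for FGFR2 and AC079781.5 at 0.832 for FGFR4.

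The rest of the FGF pathway was followed in 129 genes on 9 lists, of which 114 were in the table and 99 passed the filter. A gene was called where limma gave a Storey q under 0.05 over all 16382 genes and a fitted fold above 1.5, and p-values measure only the spread between the 3 replicates of each line. For the mean of the 5 lines 12 of 99 genes rose and 42 fell, 12.1% and 42.4%, while 7.84% of all genes rose and 28.6% fell. In shXPA 13 rose and 42 fell (all genes 11.9% and 30.9%), in shXPC 12 and 54 (9.89% and 38%), in shERCC4 4 and 42 (4.38% and 30.9%), in shERCC5 17 and 35 (9.97% and 28.3%) and in shERCC6 15 and 17 (6.52% and 19.7%). The median log2 difference of the 99 genes was −0.46 for the mean of the lines, and that of all genes was −0.33. The split depended on the scaling, as 19 rose and 15 fell with median-of-ratios scaling. The share of all genes called under that scaling is not given, so counts under it have no background here or below. Among the 5 dNER lines themselves 71 of the 99 genes differed (71.7%), against 55.7% of all genes.

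Secreted ligands other than FGF2 were scarce. Of 17 listed, 8 were in the table and 4 passed the filter. FGF1, a ligand of all 4 receptors, averaged 7.96 ± 0.916 TPM in shXPA, 6.68 ± 2.40 in shXPC, 3.56 ± 2.37 in shERCC4, 6.77 ± 0.697 in shERCC5 and 4.64 ± 0.936 in shERCC6, against 7.11 ± 2.34 TPM in shCTRL (SD, n = 3 each). With FGF2 at 3.24 to 6.004 TPM on average in the dNER lines and at 25.1 ± 1.31 TPM in shCTRL, FGF1 had the higher mean in shXPA, shXPC and shERCC5, and FGF2 in shERCC4, shERCC6 and shCTRL. FGF1 fell in shERCC4 (log2 −1.04), and without the second shERCC4 replicate it was at −0.53 and was not called. FGF23 rose in shERCC5 (1.13), where it averaged 6.76 ± 1.97 TPM, about the level of FGF1 there, against 2.75 ± 0.335 TPM in shCTRL. FGF9 was called higher in shERCC5 (1.58), but it passed the filter only through libraries of shERCC5 and shXPC. It no longer passed without replicate 2 or 3 of shERCC5 or replicate 2 of shXPC, so no direction is drawn for it. FGF22 had log2 differences of −1.08 in shXPC, −1.13 in shERCC5 and −0.69 ± 0.39 (SE) for the mean of the lines, and FGF9 was at 0.93 in shXPC. These values passed the q threshold, but FGF9 in shXPC and FGF22 in shXPC and for the mean had an unadjusted p above 0.05 (limma), since Storey q-values lie below p where most genes differ, and each of the 4 calls was lost without single libraries. No direction is drawn from them. FGF9 and FGF22 averaged at most 2.00 TPM in any line. Among intracellular FGF homologous factors, which do not signal through the receptors, FGF13 was called lower for the mean (−0.71), and FGF11 did not pass the threshold. FGF13 held 1.26 to 1.84 TPM in shCTRL and passed the filter only with these libraries, so no direction is drawn for it. With median-of-ratios scaling no ligand was called lower in any line, and FGF13 was not called for the mean.

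Proteins that bind or modify the receptors mostly fell. Of 7 tested, 1 rose and 4 fell for the mean of the lines (14.3% and 57.1%, beside 7.84% and 28.6% of all genes), and also with median-of-ratios scaling. CDH2, N-cadherin, which can bind FGFR1 and prolong its signal, averaged 2.65 ± 0.412 TPM in shXPA, 0.801 ± 0.135 in shXPC, 3.52 ± 0.805 in shERCC4, 1.25 ± 0.168 in shERCC5 and 4.11 ± 0.0948 in shERCC6, against 19.0 ± 0.991 TPM in shCTRL (log2 −2.88 ± 0.13, SE; limma q = 1.57e-11). FGFRL1, a receptor that binds FGF without a kinase, averaged 10.3 ± 2.82, 11.3 ± 2.38, 17.7 ± 3.46, 14.9 ± 2.19 and 15.9 ± 2.54 TPM in shXPA, shXPC, shERCC4, shERCC5 and shERCC6, against 32.9 ± 0.775 TPM in shCTRL (−1.25 ± 0.15; q = 9.41e-07). Both fell in all 5 lines, with median-of-ratios scaling in 5 and 4 lines. L1CAM, a neural adhesion molecule, fell for the mean (−1.67) and in all lines but shERCC6, where it was at −0.32, and FLRT2, a membrane protein of the same family as FLRT3, fell in all 5 lines (−1.22 for the mean, with median-of-ratios scaling in 3 lines), although its call was lost in shERCC4 without the third shERCC4 replicate (−0.55) and in shERCC6 without the first shCTRL replicate (−0.52). FLRT3, named here after its values were seen because it is the gene of the list that rose, encodes a membrane partner of FGF receptors and rose in all 5 lines, with log2 differences of 0.66 to 0.97, of which that in shXPA was 0.53 and not called without the third shCTRL replicate.

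The carriers of heparan sulfate split by member. Of 13 core protein genes tested, 2 rose and 6 fell for the mean of the lines (15.4% and 46.2%, beside 7.84% and 28.6% of all genes). With median-of-ratios scaling, which moves the values of all genes up, 4 rose and 2 fell, and nothing about the list is read from this turn. GPC1, a lipid-anchored glypican, averaged 31.7 ± 2.35 TPM in shXPA, 23.7 ± 0.629 in shXPC, 24.4 ± 4.57 in shERCC4, 27.1 ± 1.09 in shERCC5 and 39.3 ± 1.90 in shERCC6, against 67.9 ± 5.09 TPM in shCTRL (log2 −1.23 ± 0.09, SE; limma q = 2.16e-09). SDC2, a syndecan of mesenchymal cells, fell in all 5 lines (−2.21 ± 0.23 for the mean). AGRN, the basement membrane protein agrin, did so too (−0.86 ± 0.10), but in 0 lines with median-of-ratios scaling, where its mean difference was −0.49. SDC1, the main syndecan of epithelia, went the other way, with 227 ± 15.5 TPM in shXPA, 158 ± 5.05 in shXPC, 116 ± 26.2 in shERCC4, 231 ± 8.72 in shERCC5 and 181 ± 13.6 in shERCC6, against 100.1 ± 11.6 TPM in shCTRL (0.82 ± 0.10; q = 1.12e-06). SDC1 rose in all lines but shERCC4, where its log2 difference was 0.19, and in shXPC it was at 0.58 and not called without the first shCTRL replicate.

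Among 19 genes of heparan sulfate synthesis and editing 3 rose and 5 fell for the mean of the lines, 15.8% and 26.3%, beside 7.84% and 28.6% of all genes, so that the share that fell was near the background. With median-of-ratios scaling 3 rose and 3 fell. HS3ST1 and HS3ST6, which rose in 3 and 4 lines, averaged only 0.190 and 0.110 TPM in shCTRL. Both passed the filter only through dNER libraries, so no direction is drawn from the share that rose. HS6ST2, which adds 6-O-sulfate, a mark that FGF signalling uses, averaged 8.43 ± 0.439 TPM in shXPA, 4.84 ± 0.799 in shXPC, 11.5 ± 2.48 in shERCC4, 11.0 ± 0.766 in shERCC5 and 12.9 ± 1.15 in shERCC6, against 19.0 ± 0.233 TPM in shCTRL (log2 −1.01 ± 0.11, SE; limma q = 3.58e-07). SULF2, an extracellular enzyme that removes 6-O-sulfate, averaged 145 ± 19.7 TPM in shXPA, 91.0 ± 11.1 in shXPC, 52.8 ± 13.1 in shERCC4, 77.7 ± 4.99 in shERCC5 and 104 ± 4.34 in shERCC6, against 45.3 ± 5.73 TPM in shCTRL (0.97 ± 0.12; q = 1.20e-06). HS6ST2 fell in all lines but shERCC6 (−0.55), with median-of-ratios scaling in 2 lines and without the first shERCC4 replicate not in shERCC4 (−0.53), and SULF2 rose in all lines but shERCC4 (0.19). HS6ST1, of the same list, averaged 24.1 TPM in shCTRL and 79.2% to 96.8% of that in the dNER lines. It was called in 0 lines, with or without median-of-ratios scaling. HS6ST3, at only 1.09 TPM in shCTRL, was called lower in 4 lines, and in 3 with that scaling. HS3ST3A1, a 3-O-sulfotransferase, fell for the mean of the lines (−1.55 ± 0.18), and EXT2, a subunit of the chain polymerase, did so too (−0.62 ± 0.08), although its value was −0.26 and not called with median-of-ratios scaling.

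Below the receptors, 13 of 23 adaptor and RAS-MAPK genes fell for the mean of the lines and 0 rose (56.5% lower, beside 28.6% of all genes). At an unadjusted p under 0.05 (limma) 1 was higher and 17 were lower, and the median of the list was −0.66 beside −0.33 for all genes. With median-of-ratios scaling 1 rose and 1 fell. CRKL, an adaptor, averaged 20.1 ± 0.310 TPM in shXPA, 15.3 ± 1.06 in shXPC, 19.4 ± 2.85 in shERCC4, 18.05 ± 0.909 in shERCC5 and 24.4 ± 0.337 in shERCC6, against 33.0 ± 0.335 TPM in shCTRL (log2 −0.77 ± 0.08, SE). NRAS fell by 0.88 and GRB2, the adaptor that brings SOS to the receptor complex, by 0.87 on the log2 scale. CRKL, NRAS and GRB2 were called lower in 4, 3 and 4 lines, and with median-of-ratios scaling in 1, 2 and 2 lines.

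Feedback inhibitors and ERK-induced genes did not move as a block. Of 9 feedback inhibitors 2 rose and 4 fell for the mean of the lines (22.2% and 44.4%, beside 7.84% and 28.6% of all genes), while 3 rose and 1 fell with median-of-ratios scaling. All 9 differed among the dNER lines, beside 55.7% of all genes. DUSP6, the phosphatase that inactivates ERK and a usual readout of FGF signalling, averaged 39.4 ± 2.75 TPM in shXPA, 40.4 ± 6.22 in shXPC, 65.5 ± 21.8 in shERCC4, 82.0 ± 6.11 in shERCC5 and 87.4 ± 2.06 in shERCC6, against 24.8 ± 1.52 TPM in shCTRL (log2 1.23 ± 0.13, SE; limma q = 1.78e-07). SPRY4, a Sprouty inhibitor of RAS activation, averaged 7.62 ± 1.21 TPM in shXPA, 6.33 ± 1.52 in shXPC, 12.5 ± 2.41 in shERCC4, 18.2 ± 2.45 in shERCC5 and 16.2 ± 0.737 in shERCC6, against 30.3 ± 4.19 TPM in shCTRL (−1.39 ± 0.14; q = 9.48e-08). DUSP6 rose and SPRY4 fell in all 5 lines, and with median-of-ratios scaling in 5 and 4 lines, and in shXPC DUSP6 was at 0.57 and not called without the second shXPC replicate. SPRY1, another Sprouty, rose for the mean of the lines (1.04 ± 0.20) and in all lines but shXPA, where it was at 0.40, and its shXPC value was 0.40 and not called without the third shCTRL replicate. DUSP4 fell for the mean (−0.65 ± 0.10, and −0.28 and not called with median-of-ratios scaling).

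Of 13 ERK-induced genes 3 rose and 7 fell for the mean of the lines (23.1% and 53.8%, beside 7.84% and 28.6% of all genes), while 5 rose and 4 fell with median-of-ratios scaling. CCND1, cyclin D1, averaged 34.8 ± 5.73 TPM in shXPA, 42.1 ± 8.86 in shXPC, 56.3 ± 8.83 in shERCC4, 68.9 ± 1.501 in shERCC5 and 82.7 ± 7.92 in shERCC6, against 226 ± 14.2 TPM in shCTRL (log2 −2.06 ± 0.11, SE; limma q = 1.17e-10). FOSL1, an AP-1 subunit sustained by ERK, fell in all 5 lines (−1.78 ± 0.10 for the mean), as did ETV5, an ETS factor downstream of FGF (−1.66 ± 0.14, with median-of-ratios scaling in 3 lines). FOS, the immediate early AP-1 subunit, rose in all 5 lines, with 48.1 ± 1.74 TPM in shXPA, 37.7 ± 2.93 in shXPC, 48.9 ± 17.0 in shERCC4, 37.5 ± 1.31 in shERCC5 and 54.8 ± 3.04 in shERCC6, against 13.0 ± 2.91 TPM in shCTRL (1.76 ± 0.14; q = 9.70e-09). EGR1, an immediate early zinc finger factor named here after its values were seen, averaged 102 ± 5.53 TPM in shXPA, 62.6 ± 7.54 in shXPC, 25.05 ± 5.68 in shERCC4, 63.7 ± 2.30 in shERCC5 and 40.2 ± 1.43 in shERCC6, against 26.8 ± 1.43 TPM in shCTRL (0.96 ± 0.10; q = 1.85e-07). It rose for the mean of the lines and in shXPA, shXPC and shERCC5.

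**Figure D4:**
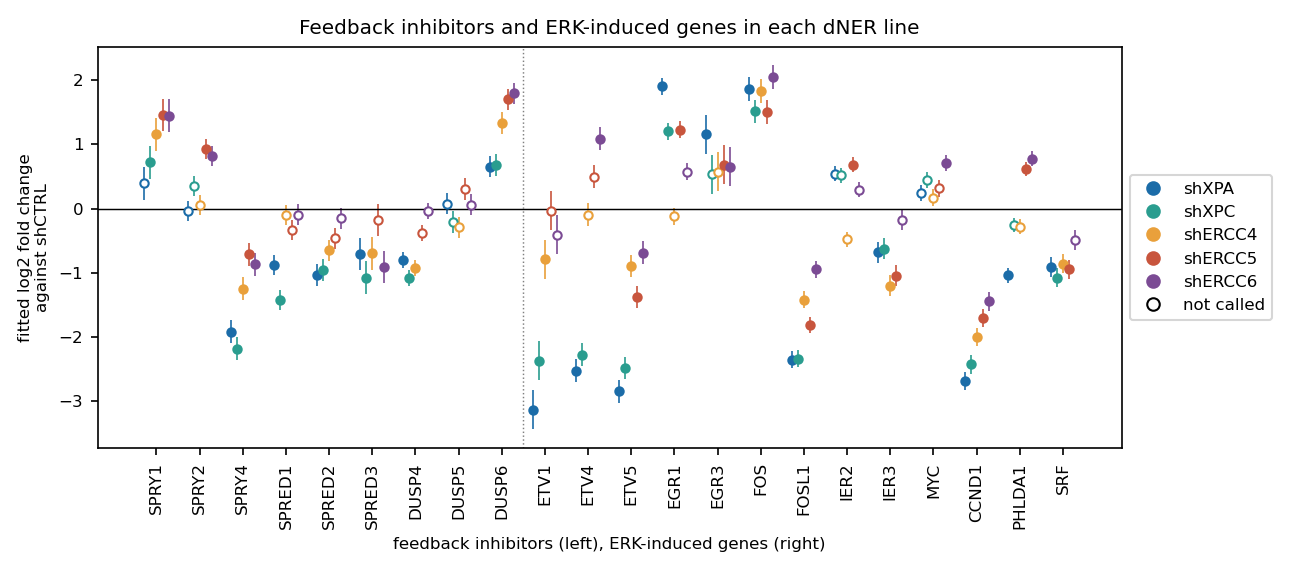
Fitted log2 fold change against shCTRL (y axis, with SE) of all tested feedback inhibitors (left of the dotted line) and ERK-induced genes (right), 1 point per dNER line; filled points passed the threshold (limma, q under 0.05 and fold above 1.5). DUSP6 and FOS lie above 0 and SPRY4, FOSL1, CCND1 and ETV5 below 0 in all 5 lines, and ETV4 spans from −2.53 in shXPA to 1.09 in shERCC6.

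Of 9 regulators of the exon choice between the IIIb and IIIc receptor forms, 1 rose and 1 fell for the mean of the lines. These were 11.1% each, beside 7.84% and 28.6% of all genes, and 2 rose and 0 fell with median-of-ratios scaling. ESRP1, the epithelial splicing regulator that favours IIIb, averaged 36.3 ± 1.29 TPM in shXPA, 39.6 ± 4.62 in shXPC, 16.8 ± 3.11 in shERCC4, 26.3 ± 2.76 in shERCC5 and 38.1 ± 3.75 in shERCC6, against 14.3 ± 1.76 TPM in shCTRL (log2 1.05 ± 0.11, SE; limma q = 1.26e-07). It rose in all lines but shERCC4 (0.22). ESRP2, of the same list, averaged 34.4 TPM in shCTRL and 91.7% to 106% of that in the dNER lines. It was called in 0 lines, with or without median-of-ratios scaling. PTBP1, a repressor of regulated exons, averaged 139 ± 3.42 TPM in shXPA, 158 ± 22.5 in shXPC, 198 ± 40.9 in shERCC4, 171 ± 7.92 in shERCC5 and 248 ± 23.9 in shERCC6, against 347 ± 22.7 TPM in shCTRL (−0.96 ± 0.10; q = 1.28e-07). With median-of-ratios scaling PTBP1 was at −0.58 and was not called, and ESRP1 was at 1.41.

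Of 18 genome neighbours of the 6 genes that were tested, 1 rose and 8 fell for the mean of the lines (5.56% and 44.4%, beside 7.84% and 28.6% of all genes), and 2 and 5 with median-of-ratios scaling. LETM1, whose end lies 2607 bases from FGFR3 on the other strand, averaged 26.7 ± 2.55 TPM in shXPA, 35.3 ± 0.874 in shXPC, 32.2 ± 4.77 in shERCC4, 39.9 ± 2.48 in shERCC5 and 41.7 ± 4.14 in shERCC6, against 53.3 ± 5.07 TPM in shCTRL (log2 −0.61 ± 0.09, SE, and not called at −0.24 with median-of-ratios scaling or at −0.55 without the first shCTRL replicate). TACC3, 48117 bases to the other side of FGFR3 and a spindle protein, fell in all 5 lines (−1.93 ± 0.15). The histone mRNA binding protein gene SLBP (−1.04) and the histone methyltransferase gene WHSC1 (−1.32) of the same region fell too. LETM2, which overlaps FGFR1, fell by 0.83 and ZNF346, 5697 bases from FGFR4, by 0.74 on the log2 scale, and neither was called with median-of-ratios scaling. The neighbour that rose was SPRY1, 498559 bases from FGF2.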

How the data were processed

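RNA of 18 libraries (5 dNER lines and shCTRL, 3 biological replicates each) was depleted of ribosomal RNA and sequenced. The authors quantified the reads with kallisto (version 0.43.1 in the submitters' notes, hg38) and deposited TPM per gene; the transcript annotation and strand setting are not given in the sources used here. Groups were taken from the hairpin labels. The deposited TPM were not rescaled. A pseudocount of 0.5 was added before taking log2, and 16382 of 22031 genes were tested, those reaching 1 TPM in 3 or more libraries. limma 3.58.1 (R 4.3.3) was fitted once over the 6 lines with empirical Bayes moderation along the trend of variance with level, leaving 12 residual degrees of freedom; Storey q-values (lambda 0.5) were taken over all genes, and a gene was called at q under 0.05 and a fitted fold above 1.5. An F test compared the 5 dNER lines. The fit was tested on simulated data. The 6 genes and all lists were chosen with earlier results of these data known. Named genes were the 6 members, up to 4 called genes of each list with the smallest q for the mean of the lines, list genes called in opposite directions, the 4 genes most correlated with each member (mean of at least 5 TPM) and adjoining genes, of which 2 are not reported here. Same-numbered replicates did not deviate together, so no block was used. Alternatives were the pseudocount (0.1 and 1), the filter (none and 5 TPM), median-of-ratios and quantile scaling, Benjamini-Hochberg adjustment, separate fits, a replicate block and leaving out each library; the mean of the 4 lines other than shERCC4 was added after the data were seen. The paper states a nominal number of raw reads per sample. As no counts were used, the depth reached in each library is unknown and no counting interval is given. Promoters were read from RefSeq (GRCh38.p14) and gene positions from GENCODE 29.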

Additional observations from a re-analysis of the deposited data

Results flagged for a closer look

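ETV4, an ETS factor induced by ERK, moved in opposite directions in single lines, each against the same shCTRL libraries. Its fitted log2 difference was 1.09 in shERCC6 and −2.53 in shXPA, with means of 29.96 ± 1.76 TPM in shERCC6 and 2.00 ± 0.479 TPM in shXPA, against 13.8 ± 0.743 TPM in shCTRL (SD, n = 3 each). The F test among the dNER lines called it, with a 12.3-fold range.

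PHLDA1, an early gene downstream of ERK, had a log2 difference of 0.779 in shERCC6 and −1.04 in shXPA, with means of 41.5 ± 1.37 TPM in shERCC6 and 11.4 ± 0.387 TPM in shXPA, against 23.96 ± 0.854 TPM in shCTRL. The F test called it as well, with a 3.53-fold range.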

How the results depend on the processing

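The 6 genes kept the sign of the mean difference under every alternative run, except FGFR2, but FGFR1 came to about 0. With median-of-ratios scaling the means were 3.44 for FGFR3, 3.03 for FGFBP1, −1.98 for FGF2, −0.05 for FGFR1, −0.21 for FGFR4 and 0.16 for FGFR2, and with quantile normalization 3.45 for FGFR3, 3.01 for FGFBP1, −1.98 for FGF2 and 0.10 for FGFR2. In single lines FGFR1 in shERCC5 turned to 0.27, against −0.06 without rescaling, and FGFR4 in shERCC6 to 0.18, against −0.03, with median-of-ratios scaling. Over the 4 lines other than shERCC4, a choice made after seeing the data, FGFBP1 was at 2.97. Counts of pathway genes moved with the scaling. With median-of-ratios scaling shXPA had 22 rising and 23 falling genes, shXPC 23 and 29, shERCC4 13 and 13 and the mean 19 and 15, while 17 fell in shERCC5 and 9 in shERCC6. With quantile normalization shXPA had 22 rising and 27 falling genes, shXPC 23 and 34, shERCC4 12 and 13 and the mean 19 and 17, while 21 fell in shERCC5. Both scalings centre the genes, which shifts each difference up. The share of all genes called is not given for either, so these counts have no background. Same-numbered libraries of different lines had a median correlation of deviations of 0.007 (1 of 45 pairs over 0.1), and a replicate block gave 12 rising and 42 falling genes for the mean, and 71 differing among the lines. Leaving out 1 library gave 40 to 43 falling and 12 to 13 rising genes for the mean, and between 35 and 47 falling genes in shERCC4. As TPM carry no counts, the precision of low genes such as FGFR2 and FGFR4 rests on 3 replicates.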
